A study of Mus musculus with 9 samples.

Results

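Cell division in the mouse liver was followed through 38 genes: cyclins, cyclin-dependent kinases (CDKs) and their regulators, DNA replication genes, mitosis genes, CDK inhibitors, the Gadd45 family, and Trp53 with its regulator Mdm2 and the targets Ccng1 and Bax. They were picked by gene symbol for their known roles, with earlier results of these data already known. All 38 were found among the 33211 genes of the count table. Male C57BL/6 mice (C57BL6/J in the methods of the study), 8 weeks old at the start, were fed a high-fat diet (HFD) for 7 weeks. The opened diet had been kept for 7 days either in a freezer at -20 °C (HFDfre, n = 5 libraries) or in a fridge at 4 °C (HFDfri, n = 4 libraries). All were wild-type mice on HFD, and the sources name storage of the diet as the only difference between the groups. One RNA-seq library was made per liver sample, and the comparison asks how storage of the diet changed expression. Every difference is given as HFDfri minus HFDfre.

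Most hepatocytes of an adult liver rest outside the cell cycle and re-enter it after injury or loss of tissue. D-type cyclins with Cdk4 and Cdk6 phosphorylate the retinoblastoma protein and release E2F factors in G1. E-type and A-type cyclins with Cdk2 then carry the cell into DNA synthesis, and B-type cyclins with Cdk1 drive mitosis. The transcription factor p53, encoded by Trp53, responds to DNA damage by raising genes that halt the cycle, repair DNA or start apoptosis, and Mdm2 marks p53 for degradation.

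The libraries held between 58614917 and 69353439 counts, a ratio of 1.18 from lowest to highest. Hepatocyte markers were abundant in each library, with Alb at 52055 to 75721 CPM (counts of a gene per 1000000 counts of the library, with library sizes scaled by the trimmed mean of M-values, TMM). The non-coding gene Gm26924 took 0.466% to 11.1% of the counts of a library, and it was above 5% in 3 HFDfre libraries and 1 HFDfri library. Of the 14220 genes that passed the filter on low counts, 150 differed at an adjusted p under 0.05 by edgeR's quasi-likelihood test, which is 1.05%. Of these, 79 were lower and 71 were higher in HFDfri. When libraries were scaled by their totals alone, 76 genes passed, 21 lower and 55 higher. The p-values set the difference between the groups against the spread of samples within each group, and they cover these 9 samples only.

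Levels per length of the 38 genes spanned a wide range, and mitosis genes were among the lowest. Gadd45g, a stress-inducible growth arrest gene, had the highest level per length at 17.7 mean CPM per kb of exon over the 9 libraries. Next came Cdk4 at 13.5, the apoptosis effector Bax at 10.4, the replication clamp gene Pcna at 9.60 and the p53 target Ccng1 at 9.17 CPM per kb. The 9 mitosis genes lay between 0.0723 CPM per kb for Ccnb1 and 0.771 CPM per kb for Aurka, with a median of 0.201. By contrast, Trp53, Mdm2, Ccng1 and Bax lay between 3.56 and 10.4 CPM per kb. In raw counts, 13 of the 38 genes had a median below 100 counts per library, 16 had a median from 100 to 1000, and 9 had a median of 1000 or more. Counts were above 0 in every library for 36 of the 38 genes. Ccnb1 had 0 counts in HFDfri 3, which allows a level of up to 0.0407 CPM, and Cdc20 had 0 counts in HFDfri 1, which allows up to 0.0534 CPM. These limits cover counting error only.

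**Figure D1:**
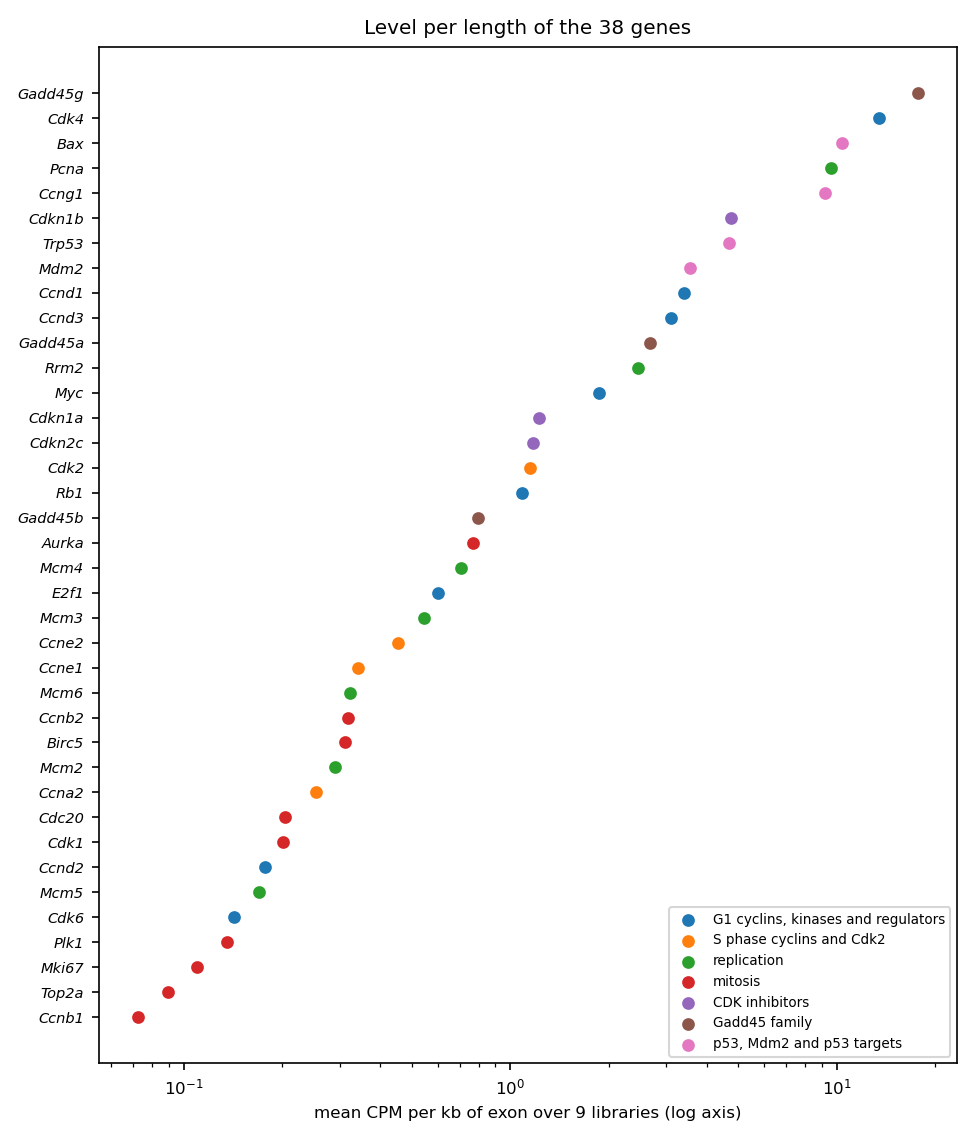
Mean level per length of the 38 genes over the 9 libraries, in CPM per kb of exon on a log axis, with genes ordered by level and coloured by role. Mitosis genes lie between 0.0723 and 0.771 CPM per kb, and Gadd45g is highest at 17.7 CPM per kb.

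None of the 38 genes passed an adjusted p of 0.05 by edgeR, against 1.05% of all genes tested. At an unadjusted p under 0.05, 9 of 38 genes (23.7%) passed, against 21.2% of all genes tested. All 9 were lower in HFDfri: Myc, Ccnd3, Cdk6, Ccna2, Cdk1, Top2a, Mki67, Gadd45g and Bax. For the lower direction the background was 9.79% of all genes tested, and for the higher direction, where no member passed, it was 11.4%. In all, 28 of 38 genes (73.7%) had a fold change below 0, compared with 50.9% of all genes tested. The median log2 fold change of the 38 genes was -0.12, and that of all genes tested was -0.0068. By TMM-scaled CPM the groups did not overlap for Cdk6, Top2a and Mki67, each lower in HFDfri. Non-overlap was found for 7.69% of all genes tested in either direction and for 3.66% in that one. DESeq2, which called 7.26% of all genes at an adjusted p under 0.05 and 3.49% as lower, called 3 of the 38 genes, with adjusted p of 0.0245 for Myc, 0.0279 for Ccna2 and 0.0417 for Top2a. Ccnb1, Ccnb2, Plk1 and Cdc20 received no adjusted p from DESeq2 and could not be called by it. By limma-voom none of the 38 genes passed the adjusted threshold, against 148 of all 14220 genes tested. At an unadjusted p under 0.05 by limma-voom, 10 members passed, all lower, against 10.2% of all genes that were lower.

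**Figure D2:**
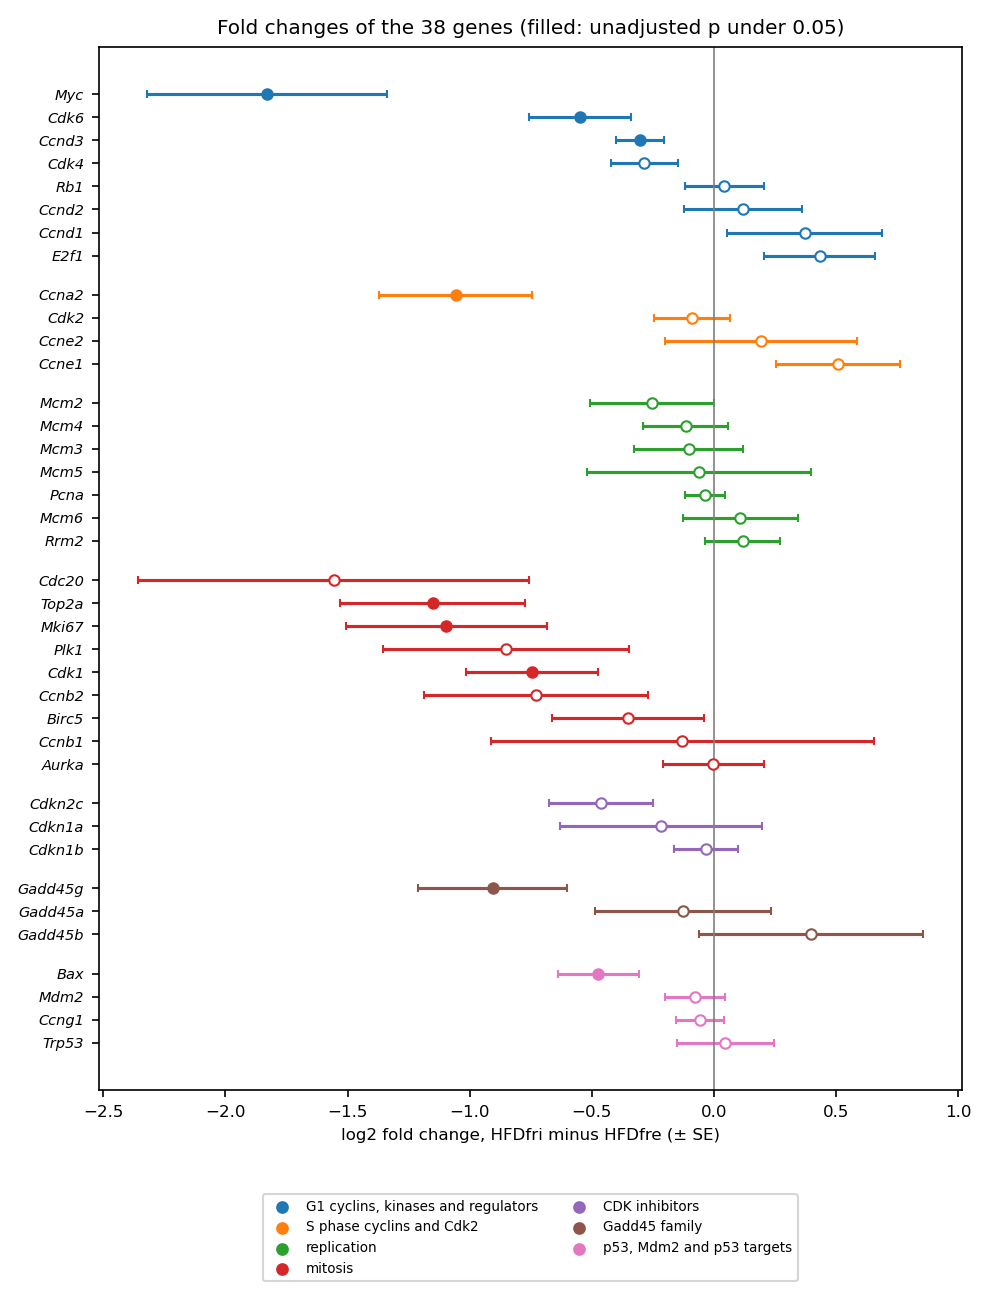
Log2 fold change (HFDfri minus HFDfre) of the 38 genes with its SE, grouped by role. Filled points mark the 9 genes with an unadjusted edgeR p under 0.05, all to the left of 0, and the 9 mitosis genes range from -1.56 to -0.0029.

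Among the 8 G1 genes, 4 were lower and 4 were higher in HFDfri, and their median log2 fold change was -0.12. Myc (ENSMUSG00000022346, chr15:61985391-61990374 on the plus strand of GRCm38) encodes a transcription factor that drives growth and cell cycle entry. Myc stood at 12.7, 6.87, 12.5, 2.20 and 2.98 CPM in HFDfre libraries 1 to 5. In HFDfri libraries 1 to 4, Myc stood at 1.57, 3.04, 1.89 and 1.86 CPM. HFDfre libraries 1 to 3 thus lay above every HFDfri library, whereas HFDfre 4 and 5 lay within the HFDfri range. The mean was 7.47 ± 5.04 CPM (SD, n = 5) in HFDfre and 2.09 ± 0.652 CPM (SD, n = 4) in HFDfri. Its log2 fold change was -1.83 ± 0.49 (SE), 3.56-fold higher in HFDfre, with an unadjusted edgeR p of 0.00294 and an adjusted p of 0.085. Without any 1 of the 9 libraries the value lay between -2.07 and -1.56, and the unadjusted p stayed under 0.05 in each of these fits.

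Of the 3 D-type cyclins, 1 had an unadjusted p under 0.05. Ccnd3 (ENSMUSG00000034165, chr17:47505051-47599691 on the plus strand of GRCm38) stood at 26.9, 27.4, 33.7, 30.04 and 30.5 CPM in HFDfre libraries 1 to 5 and at 22.9, 23.5, 22.6 and 27.3 CPM in HFDfri libraries 1 to 4. Only HFDfri 4 reached the HFDfre range. Ccnd3 had a difference of -0.30 ± 0.10 (SE) on the log2 scale, with an unadjusted edgeR p of 0.00919 and an adjusted p of 0.119. Ccnd1, the D-type cyclin best known for its induction in regenerating liver, stood at 10.5, 8.89, 21.1, 15.7 and 14.8 CPM in HFDfre libraries 1 to 5. In HFDfri libraries 1 to 4, Ccnd1 stood at 26.9, 8.10, 15.9 and 22.6 CPM. The Ccnd1 groups overlapped widely, and HFDfri held both the highest and the lowest of the 9 values. The log2 fold change of Ccnd1 was 0.37 ± 0.32 (SE, edgeR adjusted p = 0.539), and Ccnd2 had a log2 fold change of 0.12.

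Cdk6 (ENSMUSG00000040274, chr5:3341485-3531008 on the plus strand of GRCm38) encodes a kinase partner of the D-type cyclins. It stood at 2.64, 2.13, 2.31, 2.46 and 2.07 CPM in HFDfre libraries 1 to 5 and at 1.05, 1.55, 1.85 and 1.89 CPM in HFDfri libraries 1 to 4. No HFDfri library reached the lowest HFDfre library. Cdk6 had a difference of -0.55 ± 0.21 (SE) on the log2 scale, with an unadjusted edgeR p of 0.0225 and an adjusted p of 0.168. Its unadjusted p was 0.0526 without HFDfri 1. Cdk4, the more abundant of these kinases, had a difference of -0.28 on the log2 scale (edgeR adjusted p = 0.254). E2f1, an activator of replication genes, had 0.43 (adjusted p = 0.305), and the E2F repressor Rb1 had 0.04 (adjusted p = 0.912).

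**Figure D3:**
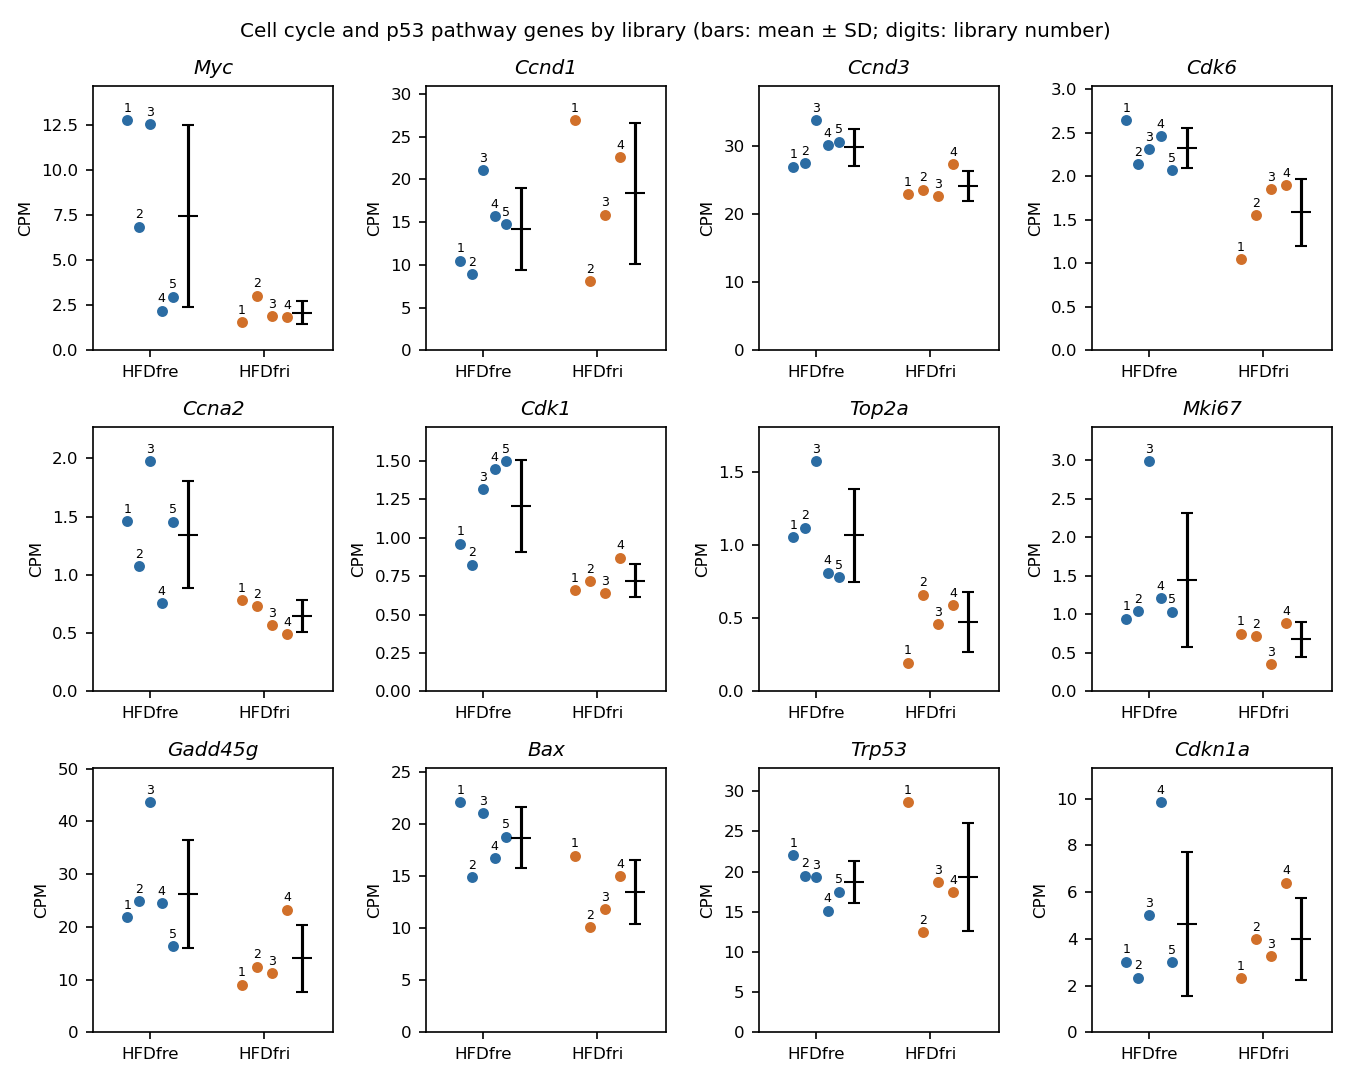
CPM of 12 of the 38 genes in each library, with digits for the library number and bars for the mean ± SD of each group. HFDfri libraries lie below every HFDfre library for Cdk6, Top2a and Mki67, whereas Myc is high in HFDfre 1 to 3 alone.

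Of the 4 S phase genes, Ccna2 was the one with an unadjusted p under 0.05. Ccna2 (ENSMUSG00000027715, chr3:36564865-36572150 on the minus strand of GRCm38) encodes cyclin A2, which acts in DNA synthesis and on the way into mitosis. It stood at 1.46, 1.07, 1.97, 0.758 and 1.46 CPM in HFDfre libraries 1 to 5 and at 0.783, 0.733, 0.570 and 0.494 CPM in HFDfri libraries 1 to 4. All HFDfre libraries but HFDfre 4 lay above every HFDfri library. Ccna2 had a difference of -1.06 ± 0.31 (SE) on the log2 scale, 2.08-fold higher in HFDfre, with an unadjusted edgeR p of 0.00567 and an adjusted p of 0.105. It kept an unadjusted p under 0.05 in all 20 alternative analyses. The E-type cyclins had positive values, with log2 fold changes of 0.51 for Ccne1 (edgeR adjusted p = 0.277) and 0.19 for Ccne2 (adjusted p = 0.821). Cdk2, their kinase partner, had -0.09 (adjusted p = 0.785).

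None of the 7 replication genes had an unadjusted p under 0.05. Their log2 fold changes lay between -0.25 for Mcm2 and 0.12 for Rrm2, with a median of -0.06. Mcm2 to Mcm6 encode subunits of the helicase that opens DNA at replication origins, and Rrm2 encodes a subunit of ribonucleotide reductase, which makes deoxynucleotides. Pcna was the steadiest of these genes, at 23.3 ± 1.28 CPM (SD, n = 5) in HFDfre and 22.7 ± 1.01 CPM (SD, n = 4) in HFDfri. Summed over the 7 genes, the level was 36.6 to 42.0 CPM in HFDfre and 36.7 to 39.9 CPM in HFDfri. HFDfri 1 held the lowest of the 9 values for 5 of the 7 genes. Mcm5 had counts of 14 to 76 per library, and its log2 fold change changed sign without HFDfri 1, from -0.06 to 0.19.

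All 9 mitosis genes had a fold change below 0, and the median of their log2 values was -0.75 with a range from -1.56 to -0.0029. Of these, 3 had an unadjusted p under 0.05. Before their values, the upstream sequence is shown for these 3 and for Cdc20, which had the lowest fold change of the group. Promoters of mitosis genes are known for pairs of CCAAT boxes, bound by NF-Y, and the cell cycle homology region whose common letters are TTTGAA. Each sequence is the 200 bases before the RefSeq gene start on GRCm38.p6, read 5′ to 3′ on the strand of the gene, with CCAAT or TTTGAA on either strand in capitals (ATTGG and TTCAAA are their reverse complements). The intervals are chr10:69352913-69353112 for Cdk1, chr11:99024190-99024389 for Top2a, chr7:135716380-135716579 for Mki67 and chr4:118437344-118437543 for Cdc20, all on the minus strand.
Cdk1: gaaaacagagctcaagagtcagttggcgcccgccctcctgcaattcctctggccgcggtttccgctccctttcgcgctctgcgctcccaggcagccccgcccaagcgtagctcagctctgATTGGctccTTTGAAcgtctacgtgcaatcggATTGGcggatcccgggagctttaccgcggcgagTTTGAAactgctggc
Top2a: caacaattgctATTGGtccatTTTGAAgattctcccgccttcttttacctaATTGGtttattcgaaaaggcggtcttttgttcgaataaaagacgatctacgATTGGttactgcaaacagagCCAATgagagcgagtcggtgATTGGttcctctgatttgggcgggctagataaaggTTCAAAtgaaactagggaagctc
Mki67: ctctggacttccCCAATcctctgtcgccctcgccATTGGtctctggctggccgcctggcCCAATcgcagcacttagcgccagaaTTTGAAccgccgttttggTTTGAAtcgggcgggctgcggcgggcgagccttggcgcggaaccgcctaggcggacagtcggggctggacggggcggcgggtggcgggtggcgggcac
Cdc20: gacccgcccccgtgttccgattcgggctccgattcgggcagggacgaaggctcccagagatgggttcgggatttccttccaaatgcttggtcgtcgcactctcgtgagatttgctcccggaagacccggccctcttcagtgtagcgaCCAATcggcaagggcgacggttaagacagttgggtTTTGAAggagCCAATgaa
At least 2 CCAAT together with TTTGAA were found in 5 of the 9 mitosis genes (Ccnb2, Cdk1, Top2a, Mki67 and Cdc20), which is 55.6%. The share was 1.14% of the 27025 genes with such a sequence, and none of the members outside the mitosis group held the pair. In the table, 31 of the 38 members had a sequence, and Ccnd1, Ccnd2, Ccne2, Ccna2, Rb1, Myc and Mcm4 had none. The E2F letters TTTCCCGC or TTTGGCGC, searched on both strands, were found in Cdk2, Mcm5 and Mcm6, which is 9.68% of the 31 members with a sequence, against 1.29% of all genes. A match of letters is a description of the sequence and not a binding site.

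Top2a, which encodes the DNA topoisomerase that untangles chromosomes, stood at 1.06, 1.12, 1.58, 0.815 and 0.784 CPM in HFDfre libraries 1 to 5 and at 0.196, 0.664, 0.462 and 0.592 CPM in HFDfri libraries 1 to 4. The groups did not overlap. Top2a also shares 122 exon bases with the small RNA gene Gm23451 on the same strand. Its levels rest on 55 to 103 counts per HFDfre library and 11 to 48 counts per HFDfri library. Top2a had a difference of -1.15 ± 0.38 (SE) on the log2 scale, 2.22-fold higher in HFDfre, with an unadjusted edgeR p of 0.0102 and an adjusted p of 0.124.

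Mki67, the gene of the proliferation marker Ki-67, stood at 0.943, 1.04, 2.98, 1.21 and 1.04 CPM in HFDfre libraries 1 to 5 and at 0.748, 0.719, 0.353 and 0.888 CPM in HFDfri libraries 1 to 4. By TMM-scaled CPM the groups did not overlap, and HFDfre 3 stood far above the other libraries. These levels rest on 49 to 195 counts per HFDfre library and 26 to 54 counts per HFDfri library. HFDfre 1 had 49 counts in a total of 60323908, and HFDfri 4 had 54 counts in a total of 58614917. By library totals alone HFDfri 4 would thus lie above HFDfre 1, and the separation depends on the scaling. For Mki67, HFDfri 3 was the lowest library. The log2 fold change of Mki67 was -1.09 ± 0.41 (SE), with an unadjusted edgeR p of 0.0204 and an adjusted p of 0.164. Without HFDfre 3 it was -0.65 with an unadjusted p of 0.0760, and without HFDfri 3 it was -0.88 with an unadjusted p of 0.0577.

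Cdk1, the kinase that drives entry into mitosis, stood at 0.963, 0.825, 1.32, 1.45 and 1.497 CPM in HFDfre libraries 1 to 5 and at 0.659, 0.719, 0.638 and 0.872 CPM in HFDfri libraries 1 to 4. Only HFDfre 2 and HFDfri 4 crossed. The log2 fold change of Cdk1 was -0.75 ± 0.27 (SE), with an unadjusted edgeR p of 0.0174 and an adjusted p of 0.154.

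The other 6 mitosis genes had an unadjusted p above 0.05. Cdc20, an activator of the anaphase-promoting complex, had the lowest fold change of the group, with counts of 15, 22, 84, 12 and 45 in HFDfre libraries 1 to 5 and of 0, 17, 11 and 21 in HFDfri libraries 1 to 4. Its groups overlapped, and the log2 fold change of -1.56 ± 0.80 (SE, edgeR adjusted p = 0.292) was -0.97 at the highest when a library was left out. The mitotic kinase gene Plk1 had -0.85 on 8 to 44 counts, the cyclin gene Ccnb2 had -0.73 on 15 to 72 counts and Birc5, the gene of survivin, had -0.35 on 35 to 108 counts. Ccnb1 had -0.13 on 0 to 37 counts, and Aurka, a spindle kinase gene, had -0.0029 on 78 to 189 counts. Ccnb1 and Aurka changed sign under some alternatives, Ccnb1 to 0.16 without HFDfre 3 and Aurka to 0.13 without HFDfre 5.

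HFDfre 3 held the highest of the 9 values for 6 of the 9 mitosis genes and for Ccna2. Summed over the 9 mitosis genes, the level was 6.33, 7.82, 12.9, 7.41 and 8.91 CPM in HFDfre libraries 1 to 5 and 5.13, 7.02, 4.60 and 6.38 CPM in HFDfri libraries 1 to 4. HFDfre 3 stood apart at the top, and HFDfre 1 was the one HFDfre library within the HFDfri range. Without HFDfre 3, 9 of the 38 genes had an unadjusted p under 0.05, of which 8 were shared with the count over all libraries, against 7.78% of all genes that were lower at that threshold. The share of counts from mitochondrial genes was 16.1%, 15.0%, 19.8%, 11.4% and 14.7% in HFDfre libraries 1 to 5 and 13.6%, 10.4%, 8.93% and 9.63% in HFDfri libraries 1 to 4. It was thus highest in HFDfre 3, as were most of the mitosis genes, and its part in their values was not tested. HFDfri 1 held the lowest value for 16 of the 38 genes and the highest value for 7 others.

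**Figure D4:**
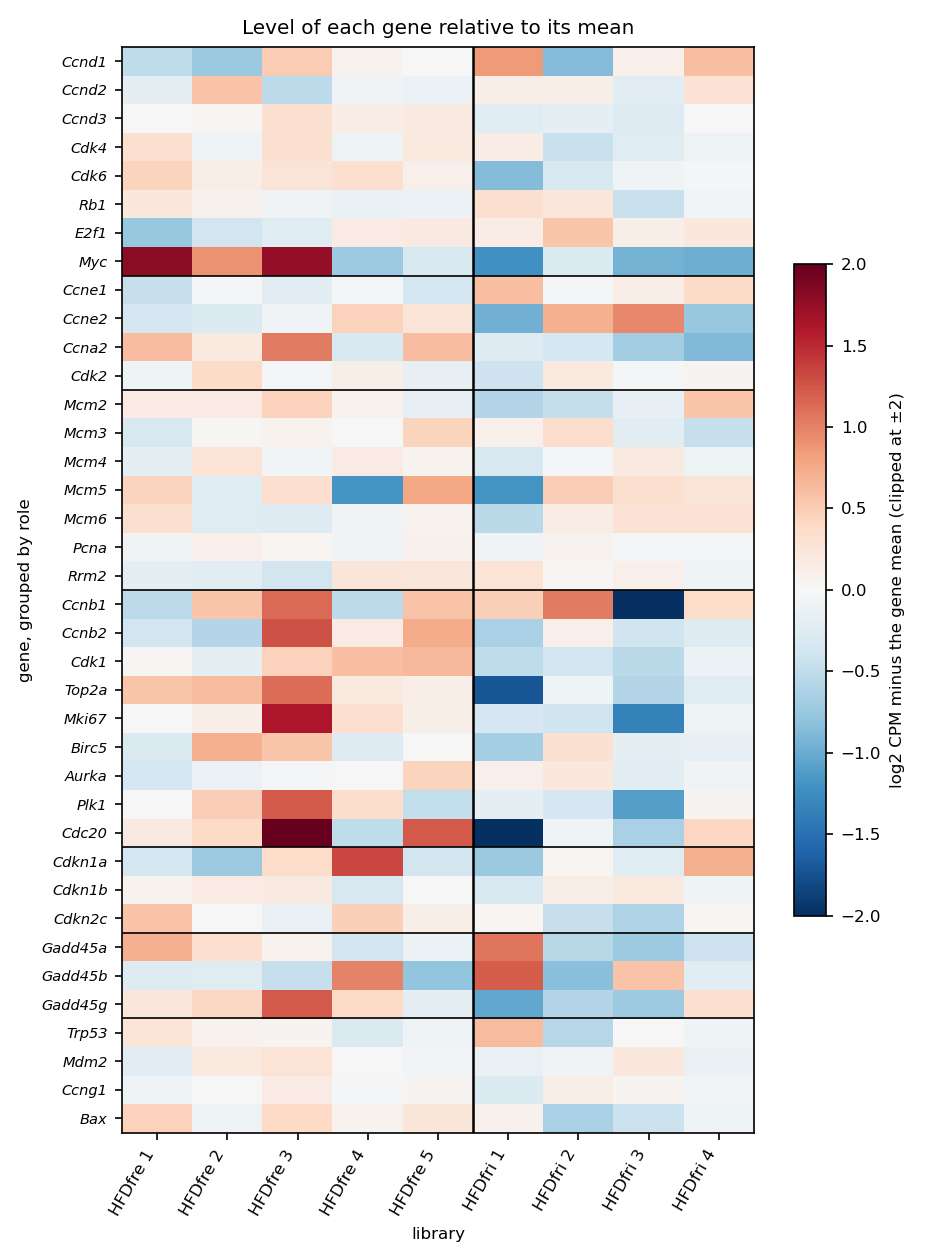
Level of each of the 38 genes in each library as log2 CPM minus the mean of the gene, clipped at ±2, with genes grouped by role and a vertical line between HFDfre and HFDfri. HFDfre 3 is the highest library for 6 of the 9 mitosis genes, and Myc is high in HFDfre 1 to 3.

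Dividing cells of the blood lineage can also carry these transcripts, and in whole liver fewer cells of a type and less RNA per cell cannot be told apart. T and NK cell markers, summed over 9 genes, stood at 2.91, 3.69, 6.13, 2.26 and 2.57 CPM in HFDfre libraries 1 to 5 and at 2.96, 2.64, 2.66 and 4.11 CPM in HFDfri libraries 1 to 4. HFDfre 3 was thus the highest library for these markers as for the mitosis genes. Counts of these markers were low, at 0 to 42 per library for Cd3e, 0 to 45 for Trac and 40 to 126 for Cd4. Of the 8 that were tested, 6 were lower, with a median log2 value of -0.75, and Cd4 was higher at 0.86 (edgeR adjusted p = 0.102). B and plasma cell markers summed to 5.58 to 14.4 CPM in HFDfre and 4.38 to 8.72 CPM in HFDfri, and 7 of 7 had a fold change below 0, with a median of -0.80. Kupffer cell and macrophage markers summed to 63.4 to 139 CPM in HFDfre and 73.3 to 97.2 CPM in HFDfri, and 6 of 8 were lower, with a median of -0.14. The B and plasma cell sum was highest in HFDfre 4, where Ighm alone made up 10.5 of the 14.4 CPM. The Kupffer cell and macrophage sum was highest in HFDfre 2. The part of these cells in the values of Ccna2, Cdk1, Top2a and Mki67 was not tested.

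**Figure D5:**
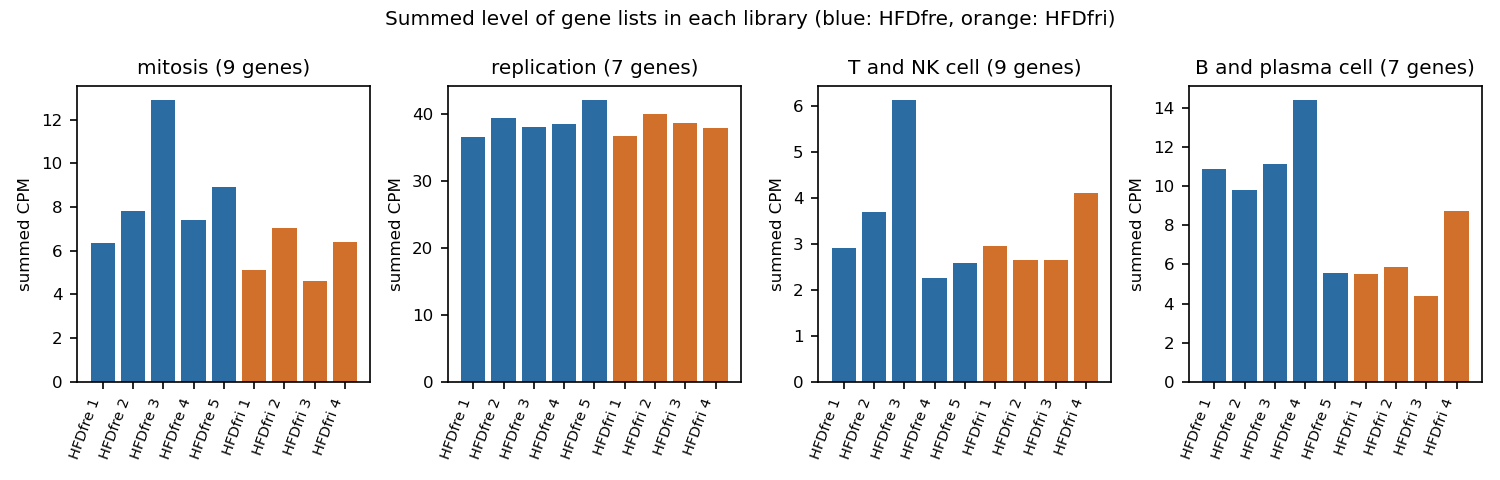
Summed CPM of the mitosis genes, the replication genes, T and NK cell markers and B and plasma cell markers in each library (blue, HFDfre; orange, HFDfri). HFDfre 3 is highest for the mitosis genes at 12.9 CPM and for the T and NK cell markers at 6.13 CPM. The replication genes range from 36.6 to 42.0 CPM over all libraries, of which Pcna alone makes up 21.8 to 24.6 CPM.

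Of the other marker lists, hepatocyte markers had 5 of 10 genes lower, with a summed level of 95590 to 102231 CPM in HFDfre and 85026 to 111942 CPM in HFDfri. Cholangiocyte markers had 3 of 6 tested genes lower, stellate cell and fibroblast markers 5 of 8, endothelial markers 4 of 7 and erythroid markers 4 of 6. The neutrophil genes Camp and Mpo and the acinar genes Cpa1, Pnlip and Prss2 were at 0 in every library. Of 3 tested neutrophil markers 1 was lower, and the 1 tested acinar marker was higher. Alas2, the heme synthesis gene of the erythroid list, rose by 0.40 on the log2 scale (edgeR adjusted p = 0.0486), and no other marker passed the adjusted threshold.

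The 3 CDK inhibitors had fold changes below 0, and none had an unadjusted p under 0.05. Cdkn1a, which encodes p21 and is the best known arrest target of p53, stood at 3.02, 2.34, 5.002, 9.83 and 2.99 CPM in HFDfre libraries 1 to 5. In HFDfri libraries 1 to 4, Cdkn1a stood at 2.31, 3.98, 3.27 and 6.40 CPM. The groups overlapped over nearly the whole range, with 1 high library in each. The log2 fold change of Cdkn1a was -0.22 ± 0.41 (SE, edgeR adjusted p = 0.807), and it turned to 0.26 without HFDfre 4. Cdkn2c, the gene of the Cdk4 and Cdk6 inhibitor p18, had -0.46 with an unadjusted edgeR p of 0.0515 and an adjusted p of 0.239. Cdkn1b, the gene of p27, had -0.03, at 21.9 ± 2.90 CPM (SD, n = 5) in HFDfre and 21.4 ± 3.24 CPM (SD, n = 4) in HFDfri.

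The Gadd45 genes encode small stress proteins of growth arrest and DNA repair, and 1 of the 3 had an unadjusted p under 0.05. Gadd45g (ENSMUSG00000021453, chr13:51846678-51848468 on the plus strand of GRCm38) stood at 21.9, 24.9, 43.6, 24.5 and 16.3 CPM in HFDfre libraries 1 to 5 and at 9.05, 12.5, 11.3 and 23.3 CPM in HFDfri libraries 1 to 4. HFDfri 1, 2 and 3 lay below every HFDfre library, whereas HFDfri 4 lay within the HFDfre range. Gadd45g had a difference of -0.91 ± 0.30 (SE) on the log2 scale, 1.87-fold higher in HFDfre, with an unadjusted edgeR p of 0.0117 and an adjusted p of 0.13. Leaving out 1 library moved it between -1.26 and -0.65. Gadd45a had a difference of -0.13 on the log2 scale (edgeR adjusted p = 0.875) and Gadd45b had 0.40 (adjusted p = 0.66), and both were highest in HFDfri 1. Without HFDfri 1 the value of Gadd45b was -0.05, and Gadd45a changed sign in 4 of 20 alternative analyses.

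Trp53 stood at 22.1, 19.5, 19.3, 15.1 and 17.5 CPM in HFDfre libraries 1 to 5 and at 28.6, 12.5, 18.7 and 17.5 CPM in HFDfri libraries 1 to 4. HFDfri held both the highest and the lowest value, and the log2 fold change was 0.05 ± 0.20 (SE, edgeR adjusted p = 0.922). Mdm2 had -0.08 (adjusted p = 0.766) and Ccng1 had -0.06 (adjusted p = 0.785), and both are induced by p53. Bax (ENSMUSG00000003873, chr7:45461697-45466898 on the minus strand of GRCm38) encodes a pore-forming protein of the mitochondrial outer membrane in apoptosis. It stood at 22.1, 14.9, 21.1, 16.7 and 18.8 CPM in HFDfre libraries 1 to 5. In HFDfri libraries 1 to 4, Bax stood at 17.0, 10.1, 11.8 and 15.0 CPM. HFDfri 2 and 3 lay below every HFDfre library, and the other HFDfri libraries overlapped with HFDfre. Bax had a difference of -0.47 ± 0.16 (SE) on the log2 scale, with an unadjusted edgeR p of 0.0140 and an adjusted p of 0.141. Without HFDfri 1 the adjusted p was 0.0430. In that fit 1106 of 14463 genes passed the adjusted threshold, against 150 of 14220 with all libraries, so the change was not particular to Bax. Bax shares 192 exon bases with Gm45808 on the same strand, so some of its reads could have been counted there.

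Of the 38 genes, 15 shared exon bases with another annotated gene, mostly on the opposite strand, as Ccna2 with Exosc9, Ccnd3 with Bysl and Cdk6 with Gm17590. The sources used here do not state whether strand was used in counting, so the reads of such pairs may not be told apart. Ccnd3, Pcna, Ccnb1, Ccnb2 and Trp53 also have a pseudogene of the same name, with which reads could have been shared.

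Lists of further genes of these pathways were set beside the 38 members. Of 37 other cyclin, CDK, inhibitor and E2F-RB genes tested, 18 were lower and 19 were higher, with a median log2 value of 0.03. By edgeR 1 passed the adjusted threshold, against 1.05% of all genes tested. This gene was Ccnf, which encodes the ubiquitin ligase subunit cyclin F. Ccnf rose from 13.2 ± 1.83 CPM (SD, n = 5) in HFDfre to 20.3 ± 1.41 CPM (SD, n = 4) in HFDfri, a log2 fold change of 0.62 ± 0.11 (SE, edgeR adjusted p = 0.0354). It passed in 9 of 20 alternative analyses.

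Of 44 other replication genes tested, 27 were lower and 17 were higher, and the median log2 value of the list was -0.13. None passed the adjusted threshold by edgeR, and 9 had an unadjusted p under 0.05, which is 20.5% of those tested against 21.2% of all genes. Of these, 8 were lower, which is 18.2% against 9.79% of all genes. The smallest p-values were those of Dut, which keeps uracil out of DNA, and Gmnn, the gene of the origin licensing inhibitor geminin. Their log2 fold changes were -0.59 for Dut (edgeR adjusted p = 0.101) and -0.73 for Gmnn (adjusted p = 0.105). By DESeq2 both passed the adjusted threshold, which 7.26% of all genes tested did, and by limma-voom no gene of the list passed.

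Of 51 other mitosis genes tested, 40 (78.4%) were lower and 11 were higher, and the median log2 value of the list was -0.34. None passed the adjusted threshold by edgeR, and 6 had an unadjusted p under 0.05, which is 11.8% of those tested against 21.2% of all genes. Of these, 5 were lower, which is 9.80% against 9.79% of all genes. Pttg1, the gene of securin, had a difference of -0.43 on the log2 scale (edgeR adjusted p = 0.0799), and Cdc27, a subunit gene of the anaphase-promoting complex, had 0.30 (adjusted p = 0.104). Sgo2a, which guards centromere cohesion, had counts of 0, 14, 18, 15 and 20 in HFDfre libraries 1 to 5 and of 4, 0, 0 and 0 in HFDfri libraries 1 to 4 (adjusted p = 0.138). Summed over the 57 genes of this list, the level was 170 to 182 CPM in HFDfre and 158 to 167 CPM in HFDfri. No HFDfri library reached an HFDfre library. The mean sum was 175 CPM in HFDfre and 163 CPM in HFDfri, and Pttg1 alone had means of 32.9 and 24.5 CPM. The gap between the sums thus rests largely on Pttg1 and is not a separation of the list as a whole. Of the 51 genes, Pttg1 and Cdc27 passed the adjusted threshold by DESeq2, against 7.26% of all genes tested, and no gene of the list did by limma-voom.

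Of 35 other p53 targets tested, 21 were lower and 14 were higher, and the median log2 value of the list was -0.10. At an unadjusted p under 0.05, 10 were lower (28.6% of those tested, against 9.79% of all genes) and 2 were higher (34.3% in either direction, against 21.2% of all genes). By edgeR 1 gene passed the adjusted threshold, whereas DESeq2 called 6, among them Dcxr and Btg2, and limma-voom called 1. Over all genes tested, edgeR called 1.05%, DESeq2 called 7.26% and limma-voom called 148 of 14220. Dcxr, a carbonyl reductase gene, fell from 79.9 ± 5.87 CPM (SD, n = 5) in HFDfre to 59.0 ± 5.32 CPM (SD, n = 4) in HFDfri, a log2 fold change of -0.44 ± 0.09 (SE, edgeR adjusted p = 0.048). It passed in 8 of 20 alternative analyses. Btg2, an antiproliferative gene named here after its values were seen, had the highest fold change of this list at 1.04 ± 0.24 (SE, edgeR adjusted p = 0.0583). It stood at 4.18 ± 1.26 CPM (SD, n = 5) in HFDfre and 8.62 ± 2.06 CPM (SD, n = 4) in HFDfri.

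Of 19 p53 regulators and DNA damage kinases tested, 11 were lower and 8 were higher, and the median log2 value of the list was -0.03. By edgeR none passed the adjusted threshold and none had an unadjusted p under 0.05. Neither DESeq2 nor limma-voom called a gene of this list or of the BCL2 family at an adjusted p under 0.05. Of 17 tested genes of the BCL2 family, which sets the threshold for apoptosis and includes partners of Bax, 7 were lower and 10 were higher, with a median of 0.08. Bcl2l13 alone had an unadjusted p under 0.05, with a difference of 0.27 on the log2 scale (edgeR adjusted p = 0.187), and none passed the adjusted threshold.

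Some liver genes vary over the day. Of 13 clock and clock output genes tested, 7 were lower, with a median log2 value of -0.03. Among them Dbp, a clock output factor, fell from 82.4 ± 11.2 CPM (SD, n = 5) in HFDfre to 47.4 ± 7.46 CPM (SD, n = 4) in HFDfri (edgeR adjusted p = 0.0293). The time of day at which each liver was taken is not given in the sources used here, and its part in the values was not tested.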

How the data were processed

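RNA of 9 liver samples was sequenced in 150-base paired-end reads. The authors aligned and quantified the reads with HISAT2, and the submitters' processing notes name HISAT2, StringTie and mm10, without versions. Annotation and use of strand are not given in the sources used here, and the library kit is named differently in the labels and the methods. The deposited table holds estimated counts per gene, as whole numbers that the authors did not scale between libraries. Low values piled up at 4 (3990 gene-library pairs, against 2172 at 3 and 1840 at 5). The counts were used as deposited. Groups were taken from the labels, which name no batch.

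Genes were filtered with filterByExpr, scaled by TMM and tested with edgeR 4.0.16 (glmQLFit, glmQLFTest, R 4.3.3) without covariates, and p-values were adjusted by the Benjamini-Hochberg method over all 14220 genes. CPM were computed from the TMM-scaled library sizes, and log2 CPM with a prior count of 2. DESeq2 1.42.0, which the authors used, and limma-voom 3.58.1 were alternatives, besides other scalings, filters, covariates and leaving out each library. The limit for a count of 0 was set at 3 counts. Symbols came with the table, 96.3% of identifiers matched GENCODE M21 (GRCm38), from which exon lengths and overlaps were taken, and upstream sequences came from RefSeq.

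The members, the gene lists and the marker lists were chosen with earlier results of these data known. Values in every library were given for members with an unadjusted edgeR p under 0.05 or no overlap between groups, and for Trp53, Cdkn1a, Ccnd1, Mki67 and Myc. Those of Cdc20 and Sgo2a are counts, and Cdc20 was chosen after its values were seen. Of each pathway list the genes past the adjusted p were named, and otherwise up to 3 with the smallest unadjusted p under 0.05; 1 such gene is not reported here.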

Additional observations from a re-analysis of the deposited data

Results flagged for a closer look

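In 76 sets of log2 CPM values, 1 for each of the 38 genes in each group, 3 sets held a library whose distance to the nearest other library took up more of the range of the group than Dixon's limit. Chance gives about 1 in 20, or 3.8 sets. For Mcm5 in HFDfri this share was 0.866, since HFDfri 1 stood at -1.84 and the other libraries at -0.38 to -0.15 log2 CPM. For Ccnb1 in HFDfri it was 0.841, since HFDfri 3, with a count of 0, stood at -5.03 and the others at -1.54 to -0.88 log2 CPM. For Mki67 in HFDfre it was 0.787, since HFDfre 3 stood at 1.59 and the others at -0.04 to 0.31 log2 CPM.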

How the results depend on the processing

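Over 20 alternatives, the count of members past the adjusted threshold, 0 by edgeR with 9 at an unadjusted p under 0.05, was 3 with DESeq2 and 0 to 1 when a library was left out, where Bax passed without HFDfri 1. The count at an unadjusted p under 0.05 lay between 6 and 12. The share of all genes that were lower at that threshold also moved. It ran from 4.85% with the libraries below a 3% Gm26924 share only to 12.9% without HFDfri 1. The 6 members came from the former fit, and the 12, of which 11 were lower, from the fit without HFDfre 4, where the share was 9.71%. Members changed sign 40 times, over 14 genes, in no case with an unadjusted p under 0.05 in either fit, and 24 members kept their sign throughout. Counts over all genes moved more: 150 became 1033 with DESeq2, 76 with library totals, 72 without the filter, 93 with the Gm26924 share as a covariate, 2 with the libraries below a 3% share only, 0 with a replicate block, and 6 to 1106 when a library was left out. The 2 other pathway genes became 13 with DESeq2, 0 with library totals, without the filter, with the covariate, with the low-share libraries and with the replicate block, and 0 to 12 when a library was left out. Among the fits that left out a library, 1106 and 12 were both reached without HFDfri 1, the fit in which Bax passed. The causes of these moves were not tested. The fit on low-share libraries kept only HFDfre 3 and 5 and HFDfri 1, 2 and 4, so it also had fewer samples. Library totals moved the median of all genes from -0.0068 to 0.051. Of the 9 members, several lost an unadjusted p under 0.05 besides the losses without 1 library. Their unadjusted edgeR p-values were above it with library totals for Ccnd3 (0.0923) and Cdk6 (0.0657), with the covariate for Cdk6 (0.0801), with the low-share libraries for Cdk6 (0.134), Top2a (0.0673), Gadd45g (0.0730) and Bax (0.0596), and with the replicate block for Cdk1 (0.0723) and Mki67 (0.0758).

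Same-numbered libraries shared only a number: the correlation of their deviations from the group means ran from -0.136 to 0.0813 over 4 pairs, and 2 of 4 pairs correlated best with their own number. With the replicate block, 9 members, all lower, had an unadjusted p under 0.05, against 8.8% of all genes that were lower. Of these 9 members, 7 were shared with the fit without a block, and none passed the adjusted threshold. Dividing all counts by 4, chosen after seeing the data, left 34 members tested. Of these, 9 had an unadjusted p under 0.05, all lower, against 11.7% of all genes that were lower. Depth limits 13 members, whose median count was under 100.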
